A study of Mus musculus with 3 samples.

Results

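The 9 genes described here are Neurod6, Tbr1, Nfia, Nov, Ctgf, C1ql3, Nrn1, Rprm and 3110035E14Rik, picked from 27998 mouse genes because they were higher in neurons that held the mCherry reporter or led the glutamatergic cells of the same data. All were found in the count matrix by symbol. The reporter and the cell class therefore chose them, and their levels by class and by reporter are given below as descriptions without a test. The label of the set, cortical-type genes raised in labelled neurons, fitted only some of them: in the pooled neurons 5 of the 9 were higher with mCherry in every library, and Tbr1, Nrn1, Rprm and Ctgf were not.

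The samples were 3 preparations of 1 group: the nucleus accumbens of Thy1::ChR2 mice, taken as a 400 um coronal dissection after FLiCRE labelling under optogenetic stimulation. Thy1::ChR2 mice carry channelrhodopsin under a Thy1 promoter, which is active in subsets of projection neurons. FLiCRE is a recorder that needs calcium and light at once: when both are present, the TEV protease cuts loose tTA, a transcription factor, which switches on a reporter, here read as mCherry. The labels give no age, no number of animals per sample and no unstimulated or uninjected group, so every comparison set cells of 1 library against each other, and the same holds for all groups used below.

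Glutamatergic neurons of the cortex, claustrum and amygdala load glutamate into vesicles with the transporter Slc17a7, while the principal neurons of the accumbens are GABAergic spiny neurons. Neurod6 and Tbr1 are transcription factors of developing and adult pallial projection neurons, and Nfia is a transcription factor known for its part in making astrocytes and oligodendrocytes that some neurons also use. Nov and Ctgf (also named Ccn3 and Ccn2) encode secreted matricellular proteins, and Ctgf is a classic marker of the deepest cortical layer, 6b. C1ql3 encodes a secreted synapse-organizing protein of the C1q family, Nrn1 a membrane-anchored neurite growth factor, and Rprm a regulator of the cell cycle that is used as a marker of layer 6 and subplate neurons. 3110035E14Rik, now named Vxn (vexin), is linked to neuronal differentiation.

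Of 11625 cells in the matrix, 9923 were kept, with 2306, 5783 and 1834 cells and 2788685, 14563414 and 6267259 unique molecular identifier (UMI) counts in libraries 1, 2 and 3. A UMI marks 1 captured RNA molecule. Libraries are numbered by the barcode suffix, which nothing ties to a numbered sample. They shared 13 (1 with 2), 7 (1 with 3) and 22 (2 with 3) barcode sequences. Among 5178 neurons called by markers, 571 held at least 1 UMI of Slc17a7 (76, 356 and 139 per library) and are called Slc17a7 neurons below. D1 and D2 spiny neurons, the principal cells of the labelled tissue, numbered 318, 1608 and 342 (D1) and 317, 891 and 287 (D2). A neuron with at least 1 mCherry UMI is called labelled: 808 neurons in all, 101 of them Slc17a7 neurons (10, 66 and 25).

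The Slc17a7 neurons of library 1 stood apart from those of the other libraries, and this touches every result below. A UMI of Gad1 or Gad2, the enzymes that make GABA, was present in 6.58% of them in library 1, 60.1% in library 2 and 42.4% in library 3. Neurod2, a factor of pallial glutamatergic neurons, stood at 266, 79.3 and 117 CPM (the gene's UMIs summed over the cells, scaled to a total of 1000000), and the 8 listed striatal genes together at 938, 2843 and 2318 CPM. Cells with a single Slc17a7 UMI resembled the rest of the neurons: 80.7% of those 207 cells held a Gad UMI, close to the 86.8% of neurons with no Slc17a7, against 31.6% of 57 cells with 2 and 30.3% of 307 cells with 3 or more. Oligodendrocytes, which should lack Slc17a7, held a UMI of it in 0.690%, 1.57% and 4.73% of cells at median depths of 949, 2146 and 4152 UMIs. What part free RNA or joined cells have in the Gad UMIs was not tested.

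Rprm was lower in Slc17a7 neurons with a Neurod6 UMI (log2 fold change -2.07), and the bases before the starts of this pair are shown for that reason. Both lie on the minus strand: Neurod6 at chr6:55677822-55681263 and Rprm at chr2:54084093-54085552 (GRCm38, GENCODE annotation). The stretches are the 250 bases before the start in RefSeq (GRCm38.p6), chr6:55681264-55681513 and chr2:54085553-54085802, given 5′ to 3′ on the gene's strand, with capitals for a site of NFI factors, the family of Nfia.
Neurod6: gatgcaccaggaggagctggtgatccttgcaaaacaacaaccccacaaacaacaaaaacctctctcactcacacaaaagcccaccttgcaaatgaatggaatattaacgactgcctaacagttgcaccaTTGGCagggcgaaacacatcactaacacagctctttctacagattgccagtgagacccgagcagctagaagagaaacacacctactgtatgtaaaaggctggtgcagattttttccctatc
Rprm: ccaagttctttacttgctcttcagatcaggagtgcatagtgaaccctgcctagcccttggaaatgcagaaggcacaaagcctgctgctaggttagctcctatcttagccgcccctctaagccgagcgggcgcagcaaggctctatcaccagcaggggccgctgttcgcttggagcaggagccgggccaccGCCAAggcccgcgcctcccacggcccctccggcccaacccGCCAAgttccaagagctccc
The NFI letters searched were TTGGC, which read GCCAA on the opposite strand. An E-box of NeuroD factors was searched as CAGATG, read as CATCTG on the opposite strand. A T-box site of the family of Tbr1 was searched as GGTGTGA, read as TCACACC on the opposite strand. The Neurod6 stretch held 1 NFI match and the Rprm stretch 2, and neither held the E-box or T-box letters, so no matches of different motifs overlapped. Of 32851 RefSeq promoters of this length 41.5% hold the NFI letters, 14.4% the E-box and 3.33% the T-box letters. The NFI letters are thus common before genes. The other genes lie, in the same annotation, at chr2:61802930-61814114 (Tbr1, plus strand), chr4:97772734-98118874 (Nfia, plus), chr15:54745702-54754039 (Nov, plus), chr10:24595442-24598683 (Ctgf, plus), chr2:13003457-13011806 (C1ql3, minus), chr13:36725361-36735131 (Nrn1, minus) and chr1:9601199-9627143 (3110035E14Rik, plus). The GC content was 46% before Neurod6 and 62.4% before Rprm.

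The transcription factors Neurod6 and Tbr1 were close to exclusive to Slc17a7 neurons. Neurod6 stood at 231, 28.2 and 83.8 CPM there in libraries 1, 2 and 3 and at most 1.70 ± 2.94 CPM (endothelial cells; SD, n = 3 libraries) in any other class. Library 1 was highest and library 2 lowest. Slc17a7 neurons held 90.4% of all 167 Neurod6 UMIs. Tbr1 stood at 385, 170 and 224 CPM, and 85.3% of its 599 UMIs lay in Slc17a7 neurons. The next class, neurons that met no other gate, reached 12.3 ± 5.86 CPM of Tbr1 (SD, n = 3 libraries), so the spreads did not meet.

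Nfia was a gene of glia first. Oligodendrocyte precursors reached 325 ± 230 CPM, astrocytes 297 ± 181, fibroblasts 221 ± 69.3, oligodendrocytes 166 ± 60.4, mural cells 155 ± 48.1 and Slc17a7 neurons 140 ± 171 (SD, n = 3 libraries). These neighbours in the order did not differ beyond their spreads. Slc17a7 neurons held 8.38% of its 1634 UMIs, and D1 and D2 spiny neurons 5.92 ± 2.92 and 4.98 ± 1.18 CPM. Within Slc17a7 neurons it stood at 336, 21.5 and 62.8 CPM, with library 1 far above the others.

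The CCN genes split between neurons and vessel-associated cells. Nov stood at 252, 37.0 and 35.3 CPM in Slc17a7 neurons, with library 1 apart, and the next class, interneurons, at 14.3 ± 17.6. Ctgf was highest in fibroblasts (154 ± 35.2 CPM), then mural cells (36.5 ± 36.7) and Slc17a7 neurons (29.8 ± 1.79), and the mural and Slc17a7 values did not differ beyond their spread. In Slc17a7 neurons Ctgf was the most even of the 9 genes over libraries, at 28.0, 31.6 and 29.8 CPM. It came from few cells: 18 Slc17a7 neurons held its 78 UMIs, and 5 of them held 70.5%.

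C1ql3 and 3110035E14Rik shared a second home in oligodendrocyte precursors. C1ql3 reached 112 ± 15.1 CPM in these cells, close to equal over libraries, and 259, 9.41 and 18.7 CPM in Slc17a7 neurons in libraries 1, 2 and 3. In each library it was higher in Slc17a7 neurons than in the other neuron classes, which reached at most 0, 3.29 and 9.14 CPM. 3110035E14Rik stood at 338 ± 168 CPM in precursors and at 434, 81.3 and 164 CPM in Slc17a7 neurons, and the classes did not differ beyond their spread. The third class in its order reached only 22.2 ± 16.9 CPM.

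Nrn1 and Rprm ran the other way over libraries. Nrn1 stood at 112, 665 and 599 CPM in Slc17a7 neurons, which held 91.1% of its 1700 UMIs. Rprm stood at 42.0, 503 and 655 CPM, and was also present in oligodendrocyte precursors (221 ± 70.3 CPM) and astrocytes (65.4 ± 8.74). Both were lowest in library 1, where Neurod6, Tbr1, Nfia, Nov, C1ql3 and 3110035E14Rik were highest.

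**Figure D1:**
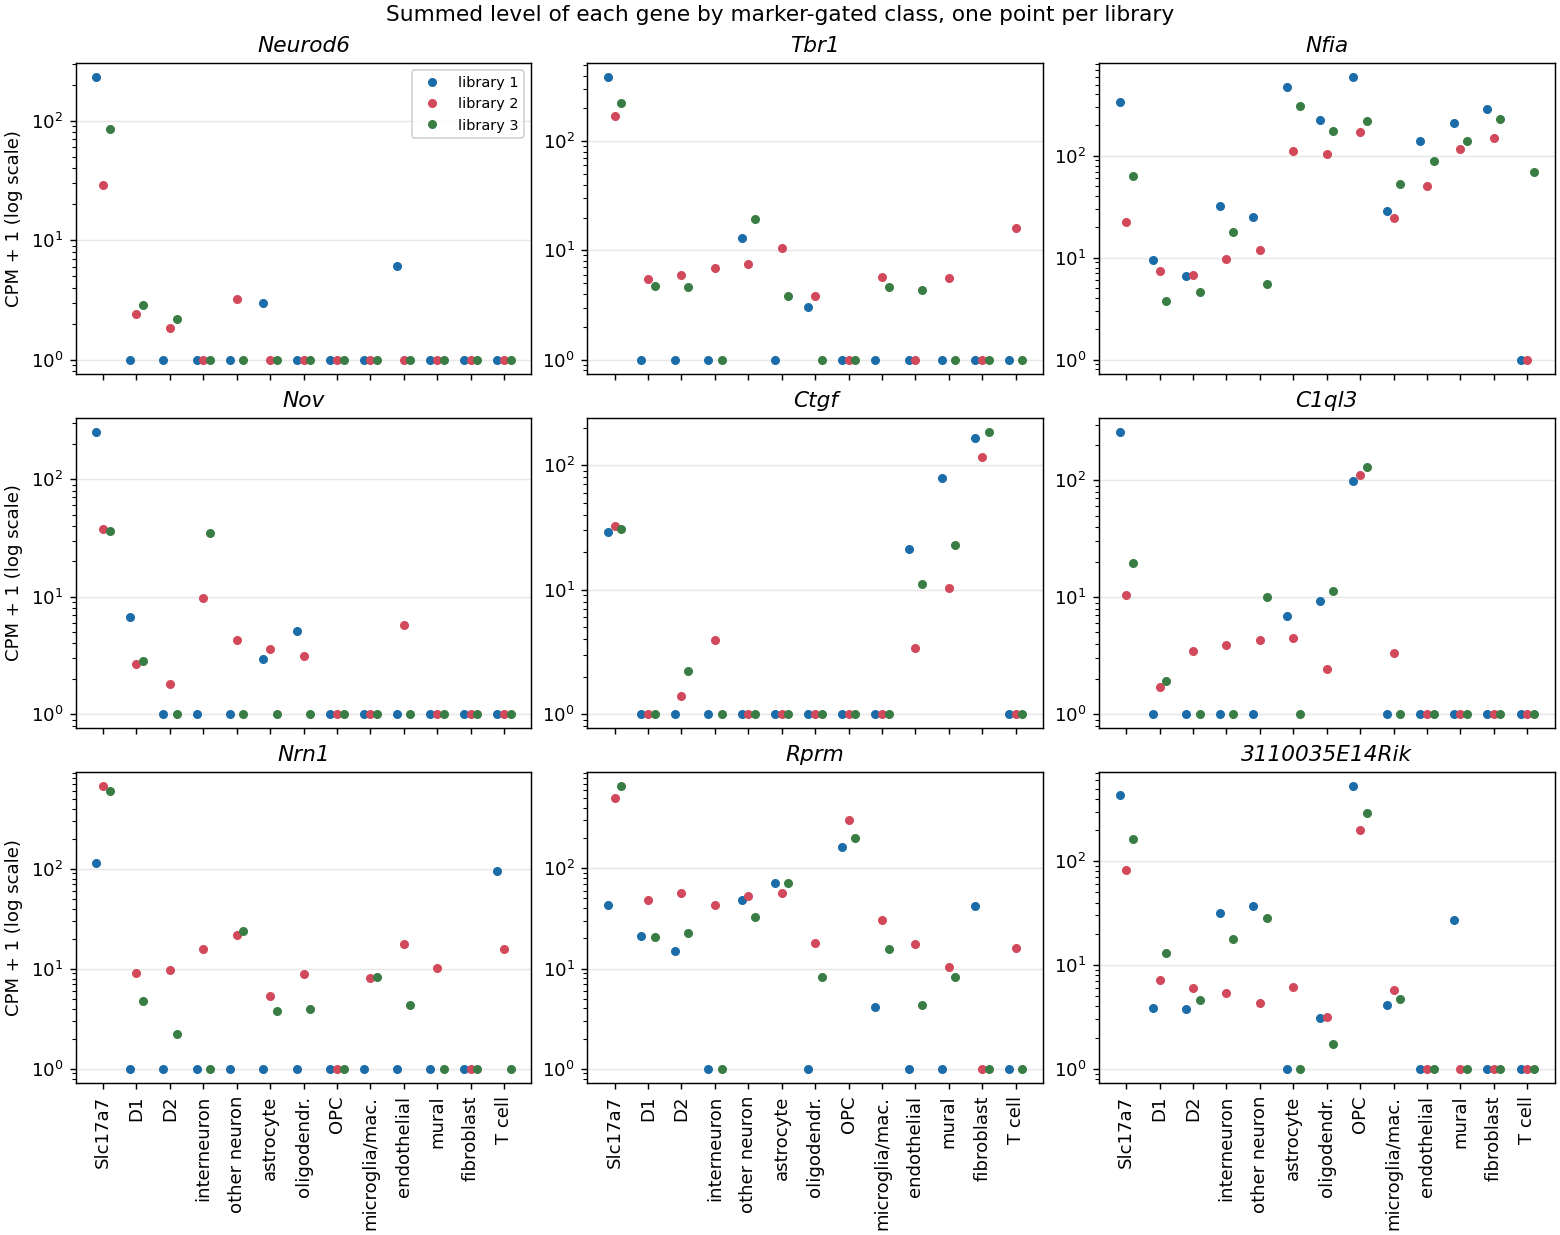
Summed CPM plus 1 (log axis) of each of the 9 genes in 13 marker-gated classes, 1 point per library; points at 1 are sums of 0 UMIs. Neurod6, Tbr1, Nov and Nrn1 are high in Slc17a7 neurons, Nfia is high across glia, and C1ql3, Rprm and 3110035E14Rik are also high in oligodendrocyte precursors (OPC).

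The library contrast remained when every cell was thinned to 1000 UMIs, which left out 14, 9 and 5 Slc17a7 neurons. A Neurod6 UMI was then found in 17.7% of Slc17a7 neurons in library 1 (11 of 62 cells, exact 95% Clopper-Pearson interval 9.20% to 29.5%), 1.15% in library 2 (4 of 347, 0.315% to 2.93%) and 5.22% in library 3 (7 of 134, 2.13% to 10.5%). Before thinning these shares were 34.2%, 6.46% and 18.0% at median depths of 1694.5, 3662 and 5302 UMIs. Rprm was found in 4.84% (1.01% to 13.5%), 27.1% (22.5% to 32.1%) and 27.6% (20.2% to 36.0%) after thinning, and in 6.58%, 44.7% and 38.8% before. So library 1 had the most cells with Neurod6 and the fewest with Rprm at equal depth. Intervals cover counting error only. In oligodendrocytes 0 of 435, 573 and 317 cells held Neurod6, which by 3 counts of the total allows up to 0.690%, 0.524% and 0.946% of cells with a UMI, and by the exact interval up to 0.844%, 0.642% and 1.16%.

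**Figure D2:**
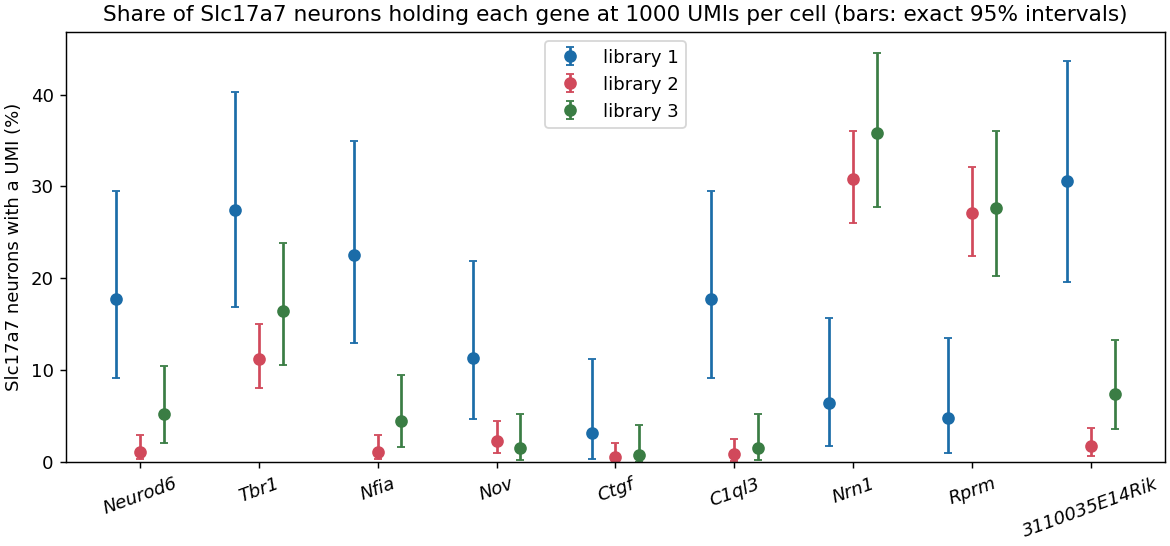
Share of Slc17a7 neurons with at least 1 UMI of each gene (percent) after thinning to 1000 UMIs per cell, by library; bars are exact 95% intervals for counting error. Library 1 is lowest for Nrn1 and Rprm (4.84% for Rprm) and highest for the other 7 genes (17.7% for Neurod6).

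In neurons as a whole, the values that chose the genes were as follows. 3110035E14Rik stood at 178, 33.3 and 136 CPM in labelled neurons of libraries 1, 2 and 3, against 60.7, 11.6 and 38.6 in unlabelled ones (fitted log2 fold change 1.67, SE 0.15). Neurod6 stood at 102, 11.2 and 51.1 against 28.1, 3.40 and 19.9 CPM (1.57, SE 0.24), and Nov at 102, 14.6 and 26.5 against 33.7, 5.17 and 9.17 CPM (1.53, SE 0.24). These 3 were among the 11 of 10395 genes called (edgeR adjusted p under 0.05, 0.106%; 9 of them, 0.0866%, higher), a count that follows from how the genes were chosen. C1ql3 (1.93, SE 0.38) and Nfia (1.51, SE 0.26) lay outside the threshold, and they too were higher in labelled neurons of each library. Tbr1 (0.25, SE 0.17), Nrn1 (-0.11, SE 0.15) and Rprm (-0.19, SE 0.11) were near 0 and moved in different directions between libraries. Ctgf was too rare to be fitted and stood at 0, 8.31 and 1.89 against 4.50, 4.08 and 10.3 CPM.

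Depth moved with the reporter: the median labelled neuron held 1497, 3258 and 4636.5 UMIs, the median unlabelled one 1010, 2301.5 and 2418. Against unlabelled neurons matched on UMIs the median log2 fold change of the genes tested was 0.62 in place of 1.52, and 0 of the 9 were called. Without library 1 the threshold was passed by 79 genes, 5 of the 9 among them, and by 0 genes without library 2 or without library 3. With DESeq2, 4 of the 9 were called among 6 genes in all.

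The rise with mCherry remained inside Slc17a7 neurons for 5 of the 9 genes. Labelled Slc17a7 neurons were higher than unlabelled ones in 3 of 3 libraries for Neurod6, Nfia, Nov, C1ql3 and 3110035E14Rik, and lower in 3 of 3 for Rprm. Of 5628 genes tested in these cells 12.3% were higher and 12.2% lower in 3 of 3 libraries. Since the reporter chose the genes, this is a description of where their rise lies.

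3110035E14Rik stood at 496, 185 and 363 CPM in labelled Slc17a7 neurons of libraries 1, 2 and 3 and at 419, 45.9 and 112 in unlabelled ones, a fitted log2 fold change of 1.47 (SE 0.27). The gap was wide in libraries 2 and 3 and small in library 1. Neurod6 stood at 283, 66.1 and 142 against 218, 15.3 and 68.3 CPM (1.19, SE 0.31). Nfia stood at 354, 42.3 and 153 against 332, 14.4 and 39.0 CPM (1.22, SE 0.35), with almost no gap in library 1. Nov stood at 283, 79.4 and 68.4 against 244, 22.5 and 26.5 CPM (1.21, SE 0.33). For these 4 genes the libraries differed more from each other than the labelled cells differed from the unlabelled ones, and the groups overlapped over libraries. The sums came from few cells. A UMI was present in 8, 14 and 11 labelled cells for 3110035E14Rik and in 5, 10 and 6 for Neurod6. For Nfia these were 7, 8 and 8 cells, and for Nov 6, 9 and 4. In library 2, 1 labelled cell held 21 of 70 UMIs of 3110035E14Rik, against at most 7 of 51 in an unlabelled cell. In library 3, 1 labelled cell held 19 of 69, and 1 unlabelled cell 21 of 80.

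C1ql3, too rare to be fitted here, stood at 425, 23.8 and 26.3 against 218, 4.50 and 16.7 CPM, on 12, 9 and 5 UMIs in labelled cells. Ctgf, also not fitted, stood at 0, 50.3 and 5.26 against 34.9, 25.2 and 36.3 CPM, in 0, 3 and 1 labelled cells with a UMI, and had no common direction.

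Tbr1, Nrn1 and Rprm had no rise with the reporter that held in 3 of 3 libraries. Tbr1 stood at 248, 143 and 258 CPM in labelled against 419, 179 and 215 in unlabelled Slc17a7 neurons (-0.16, SE 0.20), Nrn1 at 177, 595 and 405 against 96.0, 689 and 650 (-0.37, SE 0.18). Rprm stood at 35.4, 479 and 437 against 43.6, 512 and 712 CPM (-0.38, SE 0.17). Slc17a7 itself stood at 1700, 788 and 1369 against 2470, 945 and 1382 CPM, lower with the reporter in each library.

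**Figure D3:**
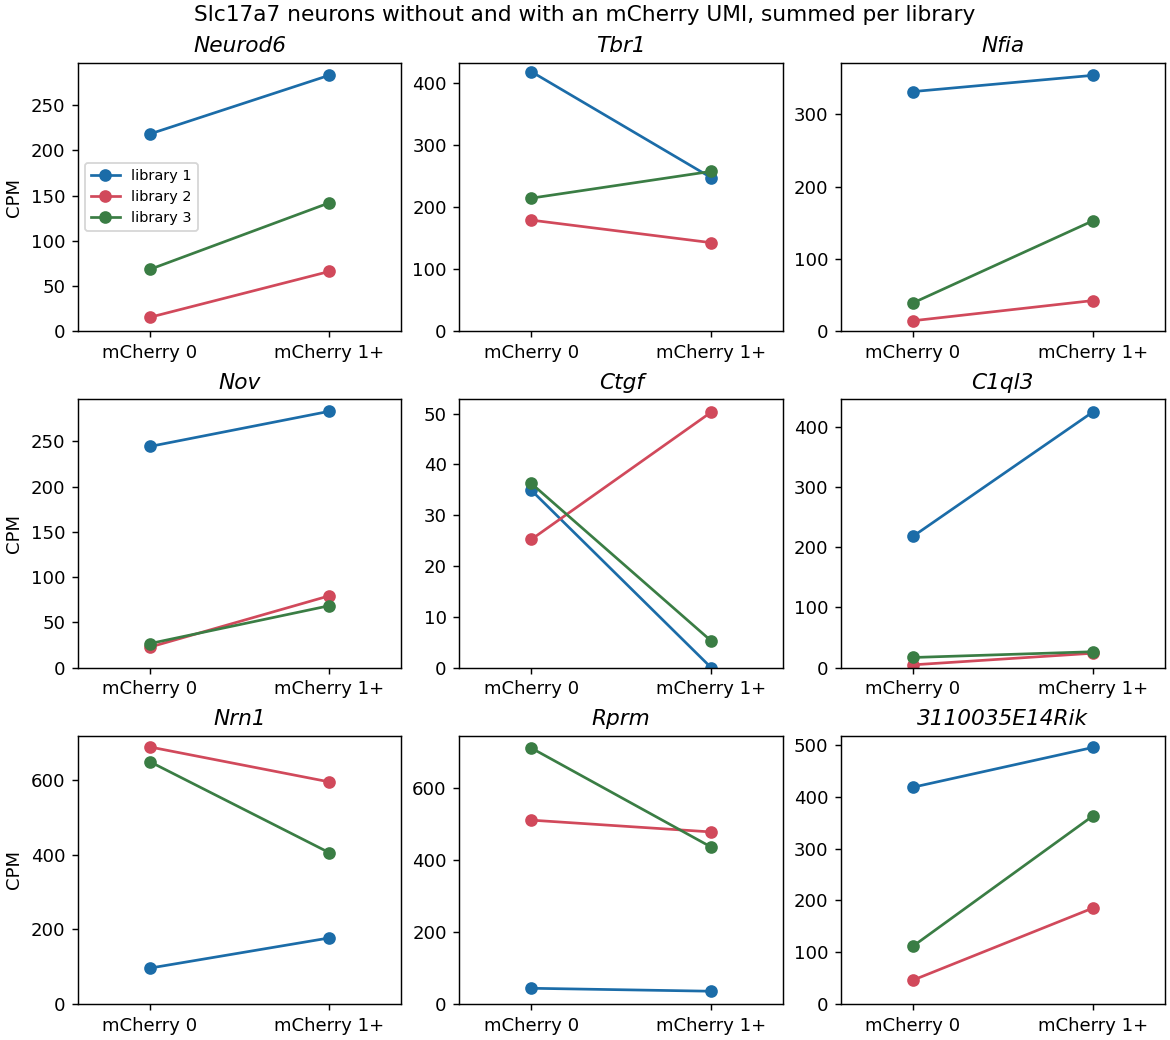
CPM of each gene in Slc17a7 neurons with 0 and with at least 1 mCherry UMI, 1 line per library. The lines of Neurod6, Nfia, Nov, C1ql3 and 3110035E14Rik go up in 3 of 3 libraries and those of Rprm down, while Tbr1, Nrn1 and Ctgf have lines in either direction.

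None of these differences passed the threshold over all genes: 0 of 5628 genes were called (0%, edgeR), 215 had an unadjusted p under 0.05, and DESeq2 called 0. The median log2 fold change of the 7 genes fitted was 1.19, against -0.01 over all genes tested. In simulated sums of this size 71.5% of 4-fold changes were recovered. Those changes were set in 200 genes above a count floor, with a fixed spread and no differences between libraries. Smaller changes, such as those fitted here, were not simulated. Median depth was 3127.5, 4783 and 6381 UMIs in labelled and 1667, 3498 and 5028.5 in unlabelled Slc17a7 neurons, and with unlabelled cells matched on UMIs Neurod6 was 0.78, Nfia 1.05, Nov 1.13 and 3110035E14Rik 0.93. Without library 1, which had 10 labelled cells, 21 genes were called, 4 of the 9 among them, a count that the choice of the genes enters, and 3110035E14Rik was 1.83 and Nfia 1.78.

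The makeup of the gate also moved with the reporter in library 3. A Gad1 or Gad2 UMI was present in 10%, 60.6% and 64% of labelled Slc17a7 neurons against 6.06%, 60% and 37.7% of unlabelled ones. In Slc17a7 neurons with 0 Gad1 or Gad2 UMIs, a gate chosen after the data were seen, 3110035E14Rik was 1.59 (SE 0.30), Nfia 1.30, Neurod6 1.05 and Nov 0.66. Tbr1 turned from -0.16 to 0.00 there. With at least 2 Slc17a7 UMIs required, Neurod6 was 1.34 and 3110035E14Rik 1.53.

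Outside the Slc17a7 gate most of the genes were scarce. Of 9887 genes tested there 11.2% were higher and 18.2% lower with mCherry in 3 of 3 libraries. Of the 9 genes, 1 was higher (Nfia) and 1 lower (3110035E14Rik), counts no larger than these shares give. In neurons with no Slc17a7 UMI, Neurod6 stood at 0, 0.986 and 0 CPM in labelled and 0, 1.28 and 1.58 in unlabelled cells, a total of 13 UMIs. 3110035E14Rik stood at 0, 4.93 and 8.86 against 7.74, 5.45 and 11.0 CPM, lower in 3 of 3 libraries (-0.20, SE 0.42). Nfia stood at 19.9, 9.37 and 8.86 against 9.03, 6.10 and 3.16 CPM, on 1, 19 and 3 UMIs (0.78, SE 0.35). Only these and Rprm (-0.34, SE 0.21) were abundant enough to be fitted, and none of the 3 was called, where 2 of 9887 genes were (0.0202%, edgeR).

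The pooled difference was next split into a part due to class mix and a part within classes. The mix part is the difference that unlabelled levels would give if the 5 neuron classes took the shares of UMIs that they have in labelled cells; the rest lies within classes. The labelled share of cells was 13.2%, 18.5% and 18.0% among Slc17a7 neurons, 5.66%, 21.1% and 13.5% among D1 neurons and 3.47%, 16.7% and 8.01% among D2 neurons. Slc17a7 neurons gave 35.9% of UMIs of labelled and 12.9% of unlabelled neurons in library 1, 15.7% and 15.1% in library 2, and 36.0% and 27.4% in library 3. The split differed between libraries.

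In library 1, the mix gave most of the rise. It gave 96.1 of 117 CPM for 3110035E14Rik, 50.3 of 73.7 for Neurod6, 56.0 of 68.1 for Nov and 75.1 of 89.4 for Nfia, and the smaller part, 50.3 of 125, for C1ql3. In library 2, where the Slc17a7 share was close to equal, it gave 0.379 of 21.7 CPM for 3110035E14Rik, 0.0180 of 7.82 for Neurod6, 0.284 of 9.38 for Nov, 0.0607 of 5.57 for C1ql3 and -0.0608 against a rise of 7.20 for Nfia. In library 3 it gave 7.98 of 97.7 CPM for 3110035E14Rik, 5.85 of 31.2 for Neurod6, 2.40 of 17.3 for Nov, 3.21 of 47.6 for Nfia and 0.830 of 3.73 for C1ql3. So the rise lay within classes in libraries 2 and 3, and mainly in the mix in library 1, apart from C1ql3.

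Averaged over libraries, the mix part was 34.8 ± 53.2 of 78.9 CPM for 3110035E14Rik and 18.7 ± 27.5 of 37.6 CPM for Neurod6 (SD, n = 3 libraries), spreads wider than the means. It was over 50% of the mean difference for 4 of the 7 genes with a positive one, and for 1 without library 1. Tbr1, Nrn1 and Rprm had a positive mix part in each library, and for Nrn1 and Rprm in libraries 2 and 3 lower levels within classes outweighed it. In library 3, for example, the mix would have raised Rprm by 58.2 CPM, and the measured difference was -53.4 CPM.

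**Figure D4:**
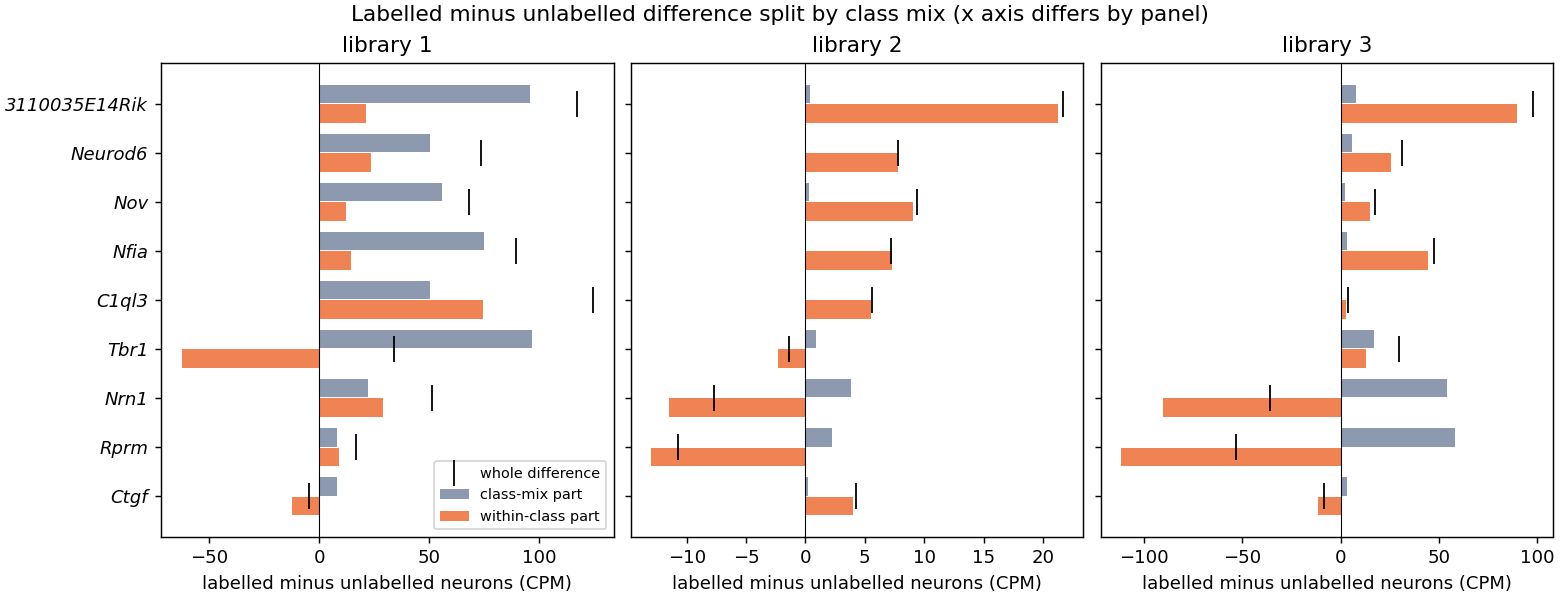
Labelled minus unlabelled CPM in neurons of each library (black ticks), split into the class-mix part (grey) and the within-class part (orange); the x axis differs between panels. Grey bars lead in library 1 (96.1 of 117 CPM for 3110035E14Rik) for 4 of the 5 genes that rose, with C1ql3 the exception, and orange bars in libraries 2 and 3 for all 5.

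A contrast other than the reporter was examined next, in cells that had served as the unlabelled side above. In Slc17a7 neurons with no mCherry, cells with a UMI of TEV or tTA, the other parts of the construct, were set against cells with neither. Depth moved with this split too, at medians of 1844, 4331 and 8036 UMIs with TEV or tTA against 1167, 2918 and 3285 with neither. Of the 8 genes tested 0 were called, as were 0 of 6358 genes in all (0%, edgeR; 242 at an unadjusted p under 0.05, 0 with DESeq2). Simulated 4-fold changes were recovered in 91% of cases at this size, again in genes above a count floor and with no differences between libraries. 3110035E14Rik was 0.85 (SE 0.30), Nfia 0.90 (SE 0.43), Neurod6 0.90 (SE 0.42) and Tbr1 0.37 (SE 0.20). Rprm was -0.09 (SE 0.19) and Nrn1 -0.22 (SE 0.18). Nov was 0.05 (SE 0.49), and its libraries differed in direction, at 134, 27.5 and 37.3 against 402, 17.7 and 7.64 CPM. The median was 0.61 against 0.01 over all genes tested.

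Ctgf differed most in this comparison. It stood at 59.5, 49.5 and 43.9 CPM in cells with TEV or tTA and at 0, 1.77 and 22.9 CPM in cells with neither, so the groups did not overlap (log2 fold change 2.47, SE 0.59; edgeR adjusted p 0.996, p 0.00102 before adjustment). These sums rest on 4, 27 and 20 UMIs against 0, 1 and 6, in 3, 3 and 4 cells against 0, 1 and 3. Against cells matched on UMIs, Ctgf was 3.99 (edgeR adjusted p 0.415) and 3110035E14Rik 0.73 (edgeR adjusted p 0.996). Without library 1, Ctgf (2.38, edgeR adjusted p 0.00333) and 3110035E14Rik (1.24, edgeR adjusted p 0.0303) passed, while Nfia was 1.92 (edgeR adjusted p 0.144) and Nov 1.13 (edgeR adjusted p 0.794). The share of all genes called without library 1 is not given, so these calls are not set against a background. Tbr1 was the only other of the 9 genes that was higher in 3 of 3 libraries, where 13.1% of the 6358 genes tested were.

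The reporter was also compared in astrocytes, a contrast that did not choose the genes. Nfia stood at 246, 108 and 261 CPM in astrocytes with mCherry and at 488, 111 and 318 without, lower in 3 of 3 libraries (-0.36, 95% interval -0.81 to 0.09, edgeR adjusted p 0.980). Rprm stood at 92.1, 72.1 and 115 against 68.9, 50.6 and 60.4 CPM, higher in 3 of 3 libraries. Its fitted value was 0.66 (95% interval 0.12 to 1.21, edgeR adjusted p 0.980). The groups were only narrowly apart, since the lowest labelled sum was 72.1 CPM and the highest unlabelled one 68.9. The labelled sums rest on just 3, 18 and 15 Rprm UMIs. Labelled astrocytes were also deeper, with a median cell at 1749, 3827.5 and 4286 UMIs, and an unlabelled one at 1533.5, 1904.5 and 3324. How often other genes kept the groups apart is not given. Of 5076 genes tested 0 were called (0%; 228 at an unadjusted p under 0.05, 0 with DESeq2), while 10.1% were higher and 15.5% lower in 3 of 3 libraries. The other 7 genes were too rare to be fitted; among them 3110035E14Rik had 3 UMIs in labelled astrocytes. Nfia in astrocytes thus had the opposite sign to Nfia in Slc17a7 neurons, and the difference between these cell types was not tested.

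The next question was whether the 9 genes were found in the same Slc17a7 neurons. For each gene, cells with a UMI of it were set against cells with none within each library, and the other genes were tested. Of 64 ordered pairs that could be tested 22 were called, 18 higher and 4 lower, or 34.4%, where 2.07% of all genes were called over the 9 fits (edgeR). They make up 17 pairs, 5 of them called in both orders. By splitting gene the share of all genes called was 2.27% for Neurod6, 3.21% for Tbr1, 1.46% for Nfia, 0.73% for Nov, 1.42% for C1ql3, 3.04% for Nrn1, 4% for Rprm, 1.23% for 3110035E14Rik and 0% for Ctgf. Since the gate holds cells with Gad UMIs, the contrast between glutamatergic and GABAergic cells that helped choose the genes can enter these tests. In cells with Neurod6, for example, Gad1 was -3.63 and Penk -2.51. A gene high in 1 arm also passes the count filter more readily. The share of 34.4% is therefore no independent support for shared cells, and the adjusted p-values below carry the same limit.

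A first group held Neurod6, Nfia, Nov, C1ql3 and 3110035E14Rik. Slc17a7 neurons with an Nfia UMI held Nov at 359, 228 and 129 CPM, against 113, 13.6 and 8.50 in those without (log2 fold change 3.47, SE 0.36, edgeR adjusted p 9.4e-08), so the levels with Nfia lay above all levels without it. They also held Neurod6 at 297, 123 and 258 against 145, 16.6 and 34.0 CPM (2.50, SE 0.31, edgeR adjusted p 2.91e-06). With Nfia, 4 of 7 genes tested were called, where 1.46% of all genes were.

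Neurod6-bearing cells held Nov at 350, 144 and 77.6 against 169, 22.2 and 18.5 CPM (2.05, SE 0.31, edgeR adjusted p 3.43e-06). Nfia in these cells stood at 396, 77.6 and 167 against 285, 13.8 and 21.6 CPM (1.93, SE 0.37, edgeR adjusted p 0.00514). Cells with 3110035E14Rik held Neurod6 at 244, 101 and 183 against 211, 11.6 and 18.3 CPM (2.50, SE 0.42, edgeR adjusted p 0.00908), and C1ql3 at 349, 39.5 and 30.5 against 123, 2.48 and 11.0 (2.14, SE 0.46, edgeR adjusted p 0.0257). Each of these was higher in 3 of 3 libraries. The remaining calls in this group were Neurod6 with C1ql3 or Nov, Nfia with C1ql3, Nov or 3110035E14Rik, and C1ql3 with Nfia.

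Rprm and Nrn1 were raised with each other in libraries 2 and 3, and Rprm was lower with genes of the first group. Cells with Rprm held Nrn1 at 976 and 835 CPM there, against 306 and 403 without it (1.33, SE 0.20, edgeR adjusted p 6.01e-05). Library 1 went the other way, with 0 against 121 CPM, on 5 cells with Rprm. In the reverse order, cells with Nrn1 held Rprm at 0, 710 and 832 against 52.3, 103 and 92.1 CPM (2.74, SE 0.39, edgeR adjusted p 0.00645). Rprm was lower in cells with Neurod6 in libraries 2 and 3, at 144 and 167 against 553 and 848 CPM (-2.07, SE 0.24, edgeR adjusted p 2.84e-06), and higher in library 1, at 60.8 against 25.9. It was lower in 3 of 3 libraries with C1ql3 (-1.74, edgeR adjusted p 0.000631), and lower with Nfia (-1.69, edgeR adjusted p 0.000475) in libraries 2 and 3 alone. Ctgf was lower in cells with Rprm, at 0, 10.0 and 9.74 against 30.2, 56.5 and 46.3 CPM (-2.38, SE 0.41, edgeR adjusted p 0.000324).

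Tbr1 was called with genes of both kinds. Cells with Tbr1 held more Neurod6 (1.68, edgeR adjusted p 0.0248), Ctgf (1.81, edgeR adjusted p 0.0210), 3110035E14Rik (1.52, edgeR adjusted p 0.0268) and Nrn1 (0.93, edgeR adjusted p 0.0156), 4 of 8 genes tested, where 3.21% of all genes were called. In library 1, 3110035E14Rik was slightly lower with Tbr1 (423 against 445 CPM). Ctgf was close to equal there (28.2 against 27.8 CPM), on 2 UMIs in each arm. Nrn1 was lower with Tbr1 in library 1 (56.4 against 167 CPM) and higher in libraries 2 and 3 (888 and 731 against 444 and 317), and with at least 2 Slc17a7 UMIs required its value turned to -0.13. For Ctgf as the splitting gene library 1 was dropped, since it had 3 such cells; 0 genes were called (edgeR, 606 at an unadjusted p under 0.05, 15 with DESeq2).

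**Figure D5:**
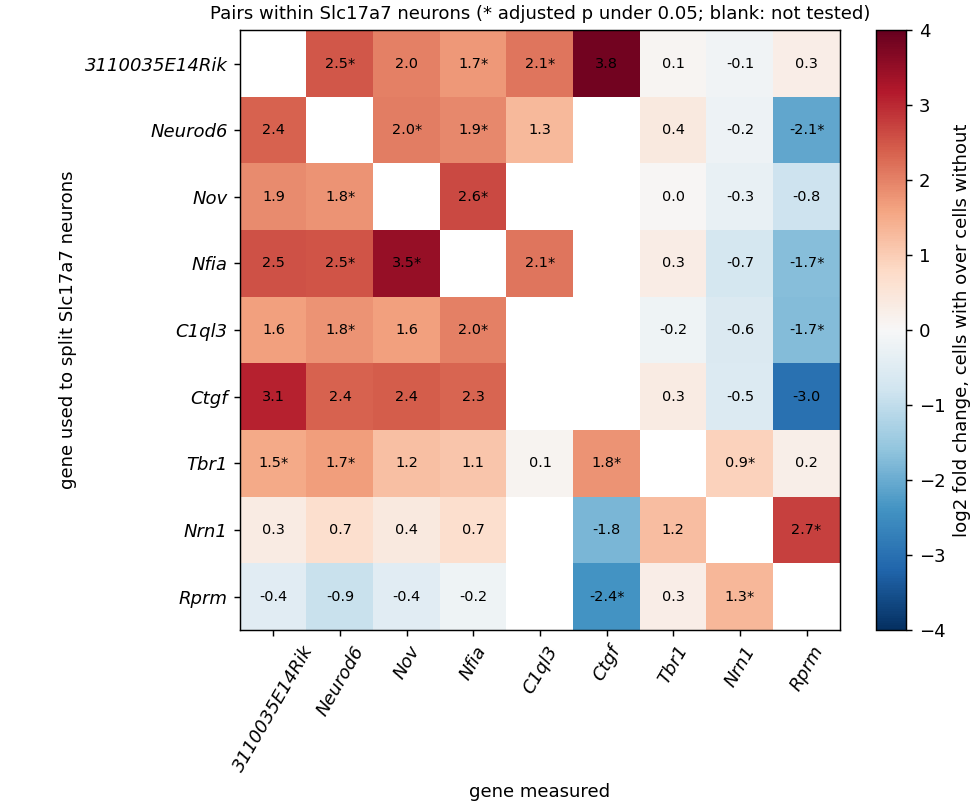
Fitted log2 fold change of each gene (columns) between Slc17a7 neurons with and without a UMI of the splitting gene (rows); a star marks an edgeR adjusted p under 0.05 and blank cells were not tested. Neurod6, Nov, Nfia, C1ql3 and 3110035E14Rik are positive with each other, and Rprm is negative with Neurod6 (-2.07), Nfia (-1.69) and C1ql3 (-1.74).

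Depth and cell makeup moved with these splits. Cells with the splitting gene were deeper in 25 of 26 library comparisons, by up to 3.06 times in median UMIs, and with cells without the gene matched on UMIs 12 pairs were called, 11 of them among the 22. Striatal genes were lower beside most of the 9: with a Neurod6 UMI, Drd1, Penk, Ppp1r1b and Rgs9 fell, and with an Rprm UMI these and Adora2a and Tac1 did. In Slc17a7 neurons with no Gad1 or Gad2 UMI, 46 pairs could be tested and 4 were called: Neurod6 with 3110035E14Rik, Nov with Nfia, and Rprm, lower, with Neurod6 and with Tbr1. The folds there stayed near their size for Nfia with Neurod6 (1.72 against 1.93) and with Nov (2.40 against 2.63). Rprm with Nfia had a larger fall (-2.54 against -1.69), which was not called there. The folds were smaller for 3110035E14Rik with Tbr1 (0.40 against 1.52), Nrn1 with Tbr1 (0.16 against 0.93) and Rprm with Nrn1 (0.86 against 2.74). Without library 1 there were 34 calls, without library 2 there were 4 and without library 3 there were 7. The share of all genes called is not given for these other settings, so their pair counts are not set against a background.

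Genes outside the 9 separated the same cells further. By the rule for naming, the top partners included Nxph3 (2.28) and S100b with Neurod6, and Sulf2 (2.75), Mpped1 and Sulf1 with Nfia. For Nov they were Gm11549 (1.98), Prss12 and Cck, for C1ql3 Hes1 (2.77), Nr4a2 and Cck, and for 3110035E14Rik Nxph3 (2.37), Prss12 and Sulf2. Cck, a neuropeptide of cortical neurons, stood at 1572, 1175 and 1602 CPM in Slc17a7 neurons with C1ql3, against 408, 164 and 196 without it (log2 fold change 2.70, edgeR adjusted p 7.9e-08). Cells with Tbr1 were led by Cplx3 (3.52), a marker of layer 6b, by Sowahb and by Serpini1, cells with Nrn1 by Gucy2g (3.52), Dkkl1 and Scube1, and cells with Rprm by E130012A19Rik (1.72), Lmo3 and Rph3a. Of 8 listed layer 6 and subplate genes tested with Tbr1, only Cplx3 was called higher, and 2 were called lower. These were Foxp2 (-3.09) and Syt6 (-2.38), where 3.21% of all genes were called, so Cplx3 alone does not name a layer. Nxph3 was a partner of both Neurod6 and 3110035E14Rik, Prss12 of Nov and 3110035E14Rik, Sulf2 of Nfia and 3110035E14Rik, and Cck of Nov and C1ql3.

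Listed genes of cortical regions were tested in the same fits. With C1ql3, only 3 of the 10 listed claustrum and insula genes passed the count filter. These rose (Nr4a2, Synpr and Gng2), in a fit that called 1.42% of all genes. Nr4a2 stood at 282, 216 and 391 CPM with C1ql3 and at 204, 12.7 and 39.8 without it. A gene high in the cells with C1ql3 passes the filter more readily, so this count does not name a region. With Rprm, 4 of 7 tested genes of that list fell (Nr4a2, Oprk1, Synpr and Car12), and of 8 tested layer 6 and subplate genes 4 fell (Foxp2, Syt6, Tle4 and Crym) and 1 rose (Sla), where 4% of all genes were called. With Neurod6 2 of 6 layer 5 genes were called, Sulf2 higher and Bcl11b lower. Some of these genes, such as Foxp2, Bcl11b and Synpr, are also expressed by neurons of the striatum.

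Over 35 sums of a class in a library, the pattern of Neurod6 was most like that of Neurod2, another factor of its family (Pearson r 0.97), as was that of Tbr1 (r 0.95). Nov was most like Hs3st2 (0.91), Nrn1 like Slc30a3 (0.81) and Ctgf like Fhl2 (0.76). Nfia was most like Rab31 (0.87), Rprm like Pou3f2 (0.82), C1ql3 like Xylt1 (0.79) and 3110035E14Rik like Igsf21 (0.86). Between the 9 genes themselves r was highest for Neurod6 and Tbr1 (0.92), then for C1ql3 and 3110035E14Rik (0.88) and for Neurod6 and Nov (0.88). The sums share libraries and depth, and the values are descriptions.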

How the data were processed

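Single-cell libraries of 3 samples came from 10x Genomics 3′ v2 chemistry per the labels' protocols. The authors deposited whole UMI counts per gene and cell as 1 pooled matrix of 28001 features, made with Cell Ranger 3.0 and mm10 per the submitters' processing notes. The annotation release and cell-calling rule are not given in the sources used here. Cells under 300 genes or over 20% mitochondrial UMIs were dropped. The highest Scrublet scores (scanpy 1.11.5, expected rate 0.06) were removed at 0.8% per 1000 cells (44, 296 and 28 cells of libraries 1 to 3), since the automatic threshold marked 57, 2 and 17 cells.

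A cell took the class with most of its 6 markers detected (at least 2, no ties; 5 found for T cells); neurons were split by Slc17a7, then interneuron, D1 and D2 markers. Raw counts were summed per library and arm (at least 5 cells) and compared with edgeR 4.0.16 (R 4.3.3; TMM, filterByExpr, glmQLFit with robust=TRUE and legacy=FALSE, Benjamini-Hochberg at 0.05); DESeq2 1.42.0 was an alternative. The library is the block, because the arms of a pair come from the same library. SEs were taken as log2 fold change over root F. CPM are sums over total UMIs, and class likeness used log2 of CPM plus 10 over sums of at least 20 cells and genes of at least 200 UMIs. P-values set the difference between arms against how it varies over libraries, which nothing says are separate animals. Differences in level between libraries are taken up by the block. The fits were tested on simulated data.

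The 9 genes, the gene lists and the edgeR settings were chosen with earlier results of these data known. Named were all 9 genes, up to 3 partners per split with the largest rise among called genes that moved 1 way in each library, the genes most like each member, and listed genes as counts. Shares were compared after thinning to 1000 UMIs (scipy 1.17.1 for intervals). Genes that overlap or share sequence were not treated apart. Some genes that these rules name are not reported here. Alternatives are given in the closing section.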

Additional observations from a re-analysis of the deposited data

Results flagged for a closer look

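The difference of 3110035E14Rik between labelled and unlabelled cells was positive inside the Slc17a7 gate and had no clear direction outside it. On the scale of log2 of CPM plus 10 it averaged 1.22 in Slc17a7 neurons, positive in 3 of 3 libraries. In neurons without Slc17a7 it averaged -0.34, so these averages lay 1.56 apart. The values outside the gate were -0.83, -0.05 and -0.16 in libraries 1, 2 and 3, so library 1 carried most of that average. The fitted value there was -0.20 (SE 0.42), and 18.2% of the 9887 genes tested were lower in 3 of 3 libraries. The difference between the groups was not tested. The values outside the gate rest on 0, 10 and 3 UMIs in labelled cells of libraries 1, 2 and 3.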

How the results depend on the processing

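The gates on Gad1 and Gad2 and the fits without the 5 neurons of highest mCherry were chosen after seeing the data. Within Slc17a7 neurons the median log2 fold change of the genes fitted (1.19) was 0.44 with no replicate block, 0.60 with no doublet removal, 0.30 against unlabelled cells with TEV or tTA, 0.66 with 0 Gad UMIs, and 0.745 to 1.44 on leaving out 1 library; the genes fitted changed with the setting, and in the fits without doublet removal and against TEV or tTA cells 8 of the 9 entered in place of 7. Genes called (0) were 10 with edgeR package defaults (robust=FALSE, legacy=TRUE), 2 with at least 2 Slc17a7 UMIs, 3 with 0 Gad UMIs, and 0 to 21 on leaving out 1 library at a time.

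In all neurons the median (1.52) was 0.62 against cells matched on UMIs and 0.35 with at least 2 mCherry UMIs. Genes called (11) were 35 with no low-count filter, 34 with those defaults, 0 with no replicate block, 6 with DESeq2, 1 when matched on UMIs, 5 against cells with TEV or tTA, and 0 to 79 on leaving out 1 library. In neurons without Slc17a7 the median (-0.20, over 3 genes) was 0.28 in cells of at least 1000 UMIs and -1.51 to 0.50 on leaving out 1 library. Genes called there (2) were 52 with no filter, 40 with those defaults, 0 with no block, 0 with DESeq2, 5 with no doublet removal, 17 with at least 2 mCherry UMIs, 1 against cells with TEV or tTA, and 0 to 4 on leaving out 1 library.

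Among cells split by TEV or tTA, 0 to 2 of the 9 genes were called on leaving out 1 library. No share of all genes called stands beside these counts. Ordered pairs called (22) were 5 with no filter, 37 with those defaults, 0 with no replicate block, 12 when matched on UMIs, 14 with at least 2 Slc17a7 UMIs, 4 with 0 Gad UMIs, and 4 to 34 on leaving out 1 library. These pair counts under other settings have no share of all genes beside them. The count of genes with a mix part over 50% (4) was 1 to 6 on leaving out 1 library. In the pair of Tbr1 with Nrn1 the sign reversed, to -0.13, with at least 2 Slc17a7 UMIs. Repeats were counted over single genes, mix parts and the pairs called in the main fit. Of these, 538 gave the same sign and side of the threshold, 120 dropped below it, 2 passed it, 14 moved and 1 reversed. Pairs not called in the main fit were not followed in these counts. Of the 37 pairs called with package defaults 22 were shared with the main fit, and of the 34 without library 1, 18 were. Rprm with Tbr1 went from 0.22, not called, to -1.02, called, with 0 Gad UMIs. For all of these the cause was not tested. Slc17a7 neurons with 0 striatal UMIs, and at least 2 mCherry UMIs within Slc17a7 neurons, left too few cells and were not fitted. Depth limits what can be seen: Ctgf and C1ql3 had 78 and 68 UMIs in Slc17a7 neurons.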
